A study of Homo sapiens with 3 samples.

Results

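The epsins EPN1, EPN2 and EPN3 and the Ena/VASP proteins ENAH, VASP and EVL were followed in etoposide-treated HepG2 cells. Members were all non-control probes whose gene name on the array was one of these 6 symbols, which gave 8 probes (4 for each family) of 34127 probes for 27274 genes. EPN3 and EVL were selected on their fold changes on these same arrays, with 10 µM etoposide (the low dose) above both control and 100 µM (the high dose), so these comparisons are descriptions for them. Their paralogs were added for contrast. HepG2 is a human hepatocellular carcinoma line with wild-type p53, and etoposide is an anticancer drug that traps topoisomerase II on cut DNA and so causes double-strand breaks.

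All cells were the same line, grown alike and harvested at 30 h. Control cells were labelled 0 µM, low-dose cells received 10 µM etoposide and high-dose cells received 100 µM. The study gives its array folds for these doses over DMSO. The study asked which genes respond differently at a dose that mainly gives senescence and at a dose that mainly gives apoptosis. Total RNA of each condition was hybridised to 1 Agilent 1-colour array, all 3 on 1 slide. No array difference thus has a replicate array, and no test was made. The study also measured EPN3 and EVL by qPCR. It reports that both exceeded DMSO with either amount of etoposide, and more so with 10 µM than with 100 µM. In osteosarcoma lines under another drug schedule, it reports EPN3 raised with wild-type p53 and not raised without p53, and EVL undetected. Those qPCR values were not analysed here. The errors given here are the spread between spots of repeated probes within an array, and say nothing of the spread between cultures or RNA preparations. For a probe with several spots they are the error of the mean of those spots. In RNA from whole cultures, fewer cells of a type and less RNA per cell cannot be told apart.

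Epsins are adaptors of clathrin-mediated endocytosis. Their ENTH domain binds phosphoinositides and helps to bend the membrane, and their tails bind clathrin, the AP2 adaptor and ubiquitinated cargo such as receptors and Notch ligands. EPN1 and EPN2 are made in most tissues, and EPN3 is found mainly in epithelia such as skin and stomach. Ena/VASP proteins sit at growing actin filament ends in lamellipodia, filopodia and focal adhesions, where they promote filament elongation. Their EVH1 domain docks on proline-rich motifs of partners such as zyxin.

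The probes decide what each value stands for, so the beginning of each one is shown, 30 bases of 60, all in lower case. Their positions on hg18 and their transcripts are those given by the array design, which does not state exon or untranslated region.
EPN1 probe: tgaatccttggtgatgattttggcaacttt
EPN2 bright probe: tggaggaagtcacccagctgtttctcagtc
EPN2 dim probe: ttcctctctgacaccactgggccctgcaat
EPN3 probe: ttgcaacgactctctgaggtagaaaatatt
EVL probe: tacatttctttgggtttctagagacgcccc
ENAH bright probe: cttttgattttgttgggtaagttaaatagt
ENAH dim probe: cttgcttgactcaagttgtttgaaaatctg
VASP probe: ggagggaatttcacattcccttgttctaga

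Over the 10 pairs of probes from different genes of a family, the longest run shared on the same strand was 4 to 8 bases. No probe thus repeats a long stretch of a paralog's probe. The probes were not compared with the paralogs' transcripts, so binding to those was not tested. EPN3 was read by 1 probe for NM_017957 at chr17:45975055-45975114 (plus strand), and EVL by 1 probe for NM_016337 at chr14:99680083-99680142 (plus strand). EPN1 was read at chr19:60898884-60898943 (plus strand, NM_001130071) and VASP at chr19:50721578-50721637 (plus strand, NM_003370). The brighter EPN2 probe lay at chr17:19180507-19180566 (plus strand, NM_014964), and the brighter ENAH probe at chr1:223749919-223749978 (minus strand, NM_001008493). The dim probes lay at chr17:19178052-19178111 for EPN2 and at chr1:223741717-223741776 for ENAH.

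Between 19835 and 20150 probes were well above background on each array, and 0 were saturated. All 9 liver markers, such as albumin, were well above background on every array. Of 10 markers of blood, endothelial, fibroblast and neural cells, 9 were on the array. COL1A1, COL1A2 and VIM were above background on no array, and 6 were above it on all 3. The summed signal of this second list was 4654 in control, 4026 with 10 µM and 6155 with 100 µM, and most of it came from the CD79A probe. The part of these markers in the results was not tested. The p53 target CDKN1A, a cell cycle inhibitor, read 170, 1407 and 1010, and the p53 ubiquitin ligase MDM2 read 616, 4522 and 1652. Signals are Agilent processed intensities. Fold changes were taken after dividing each array by its 75th percentile, which was 514 in control, 537 with 10 µM and 433 with 100 µM.

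EPN3 was the epsin with a large difference. Its signal was 152 without etoposide, 1014 with 10 µM and 392 with 100 µM. The low-dose array was highest, the control array was lowest, and the high-dose array lay between them. After scaling, the low dose was 6.41-fold above control (log2 2.68, spot SD 0.13, range over 2 SD 5.35 to 7.68). The high dose was 3.07-fold above control (2.54 to 3.71), and the low dose was 2.09-fold above the high dose (1.87 to 2.33). Among the 15178 genes well above background on all arrays, EPN3 ranked 32 from the top at the low dose and 161 with 100 µM.

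**Figure D1:**
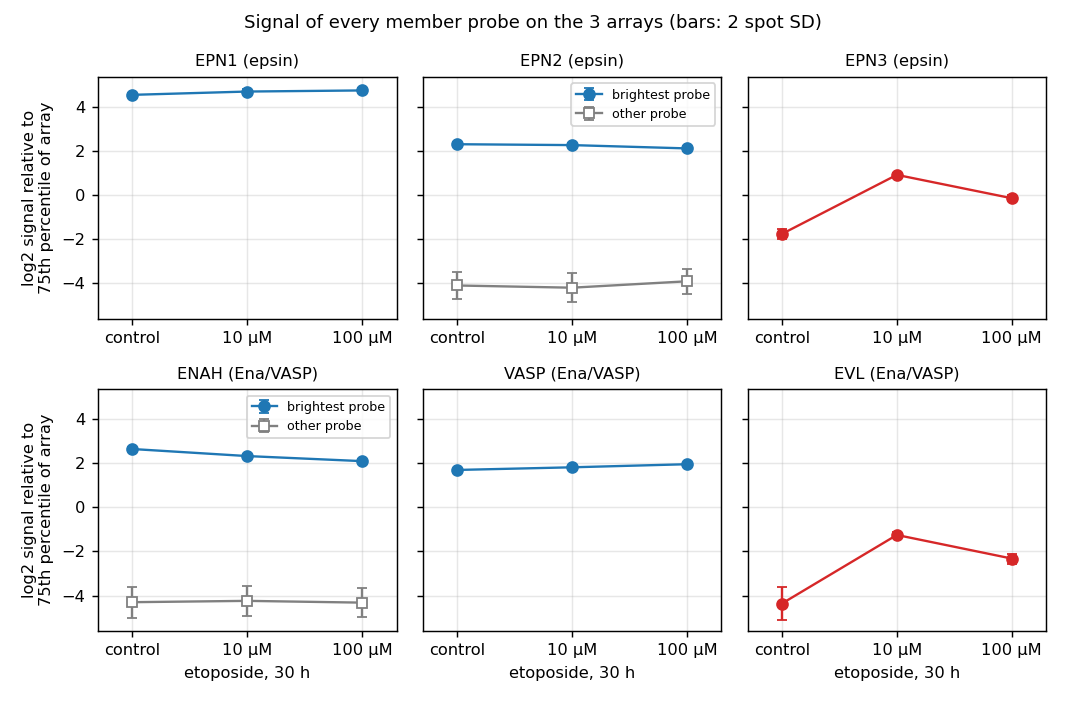
Signal of each probe of the 6 genes on the 3 arrays (control, 10 µM and 100 µM etoposide, 30 h), as log2 of the signal relative to the 75th percentile of that array. Bars are 2 spot SD, filled circles are the brightest probe of a gene and open squares the other probe. EPN3 and EVL peak at 10 µM, while the dim probes of EPN2 and ENAH stay near background on all arrays.

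EPN1 and EPN2, the widely made epsins, differed little between the arrays. EPN1 read 12074 in control, 13935 with 10 µM and 11649 with 100 µM. These gave 1.11-fold at the low dose (1 to 1.22) and 1.15-fold at the high dose (1.03 to 1.27), the latter falling to 0.965-fold without scaling and 0.939-fold with median scaling. All 3 EPN1 arrays thus stood close together, and the side of control on which the high dose fell depended on the scaling.

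The bright EPN2 probe read 2556, 2592 and 1883 in the same order. Relative to control it was 0.972-fold at the low dose (0.889 to 1.06, and 0.957 to 1.01 over the scalings) and 0.875-fold at the high dose (0.795 to 0.963), and stayed below 1 at the high dose in all 7 scalings, at 0.717 to 0.916-fold. The dim EPN2 probe read 29.9, 29.2 and 28.7, close to background, with a high-dose fold of 1.14 and a spot SD of 0.42 in log2. It lies on the other side of 1 from the bright probe at the high dose, within its own spread.

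The difference between EPN3 and its paralogs does not depend on the scale factor of an array, since both are read on the same arrays. At the low dose the log2 change of EPN3 exceeded that of EPN1, the nearest epsin, by 2.54 (spot SD 0.15), or 5.80-fold. It exceeded that of EPN2 by 2.72, or 6.60-fold. With 100 µM the gaps were 1.42 to EPN1 (2.68-fold) and 1.81 to EPN2 (3.51-fold), with a range over 2 spot SD of 1.11 to 1.73 for the smaller one.

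EVL, which binds actin filaments and profilin like its paralogs, was the Ena/VASP gene with a large difference. The signal of its probe was 25.1 without etoposide, 226 with 10 µM and 86.7 with 100 µM. The order of the arrays was the same as for EPN3. The control value was only 1.28 times the lowest signal called well above background on that array, against 9.99 times at the low dose. The fold was 8.65 at the low dose (log2 3.11, spot SD 0.38, range 5.13 to 14.6) and 4.11 at the high dose (2.4 to 7.03), and the low dose was 2.11-fold above the high dose (1.75 to 2.54). The normexp background correction as run here added an offset of 50 to every signal, which is more than the EVL control signal. Such an offset pulls the folds of dim probes toward 1. With it the 3 EVL folds were 3.27, 2.12 and 1.54, each below the matching EPN3 fold (4.79, 2.5 and 1.91). How much of this came from the offset was not tested. EVL ranked 16 from the top with 10 µM and 61 with 100 µM among the 15178 genes.

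VASP, the founding member of its family, was spotted 10 times on each array. The mean signal was 1672 in control (spots 1605 to 1748), 1894 at the low dose (1856 to 1930) and 1686 at the high dose (1619 to 1745). Before scaling, the low-dose spots did not overlap those of the other arrays, and the control and high-dose spots overlapped. VASP was 1.09-fold of control at the low dose (1.05 to 1.12) and 1.20-fold at the high dose (1.16 to 1.24), and with median scaling the latter was 0.981-fold.

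ENAH, also called Mena, was the Ena/VASP gene with lower signal on both treated arrays. Its bright probe read 3227 in control, 2698 with 10 µM and 1851 with 100 µM. The signal was thus lowest at the high dose. The folds were 0.801 at the low dose (0.732 to 0.877) and 0.682 at the high dose (0.618 to 0.751), and over the 7 scalings they were 0.789 to 0.836 and 0.558 to 0.714. Of the 15178 genes, 10.6% had a lower high-dose fold than ENAH. The dim ENAH probe read 26.1, 28.4 and 21.6 and was not well above background at the high dose, where its fold has only an upper bound of 0.984. The 0.682-fold of the bright probe at the high dose thus rests on that probe. The low-dose fold of the dim probe was 1.04 with a spot SD of 0.48 in log2.

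At the low dose the log2 change of EVL exceeded that of VASP by 3.0 (spot SD 0.38, 7.97-fold) and that of ENAH by 3.43 (10.8-fold). With 100 µM the gaps were 1.78 (3.43-fold) and 2.59 (6.03-fold). Under normexp the gap to VASP, the nearest paralog, was 1.61 with 10 µM and 0.89 with 100 µM. EVL and EPN3 themselves differed by 0.43 in log2 at the low dose, with a range over 2 spot SD of -0.37 to 1.23, and by 0.01 in the ratio of the doses (-0.30 to 0.32). Both ranges include 0. They hold only spot error, and both genes were chosen on these folds, so no likeness is read from them. With normexp and its offset of 50 the order turned, EVL being at 1.71 and EPN3 at 2.26 in log2 at the low dose.

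**Figure D2:**
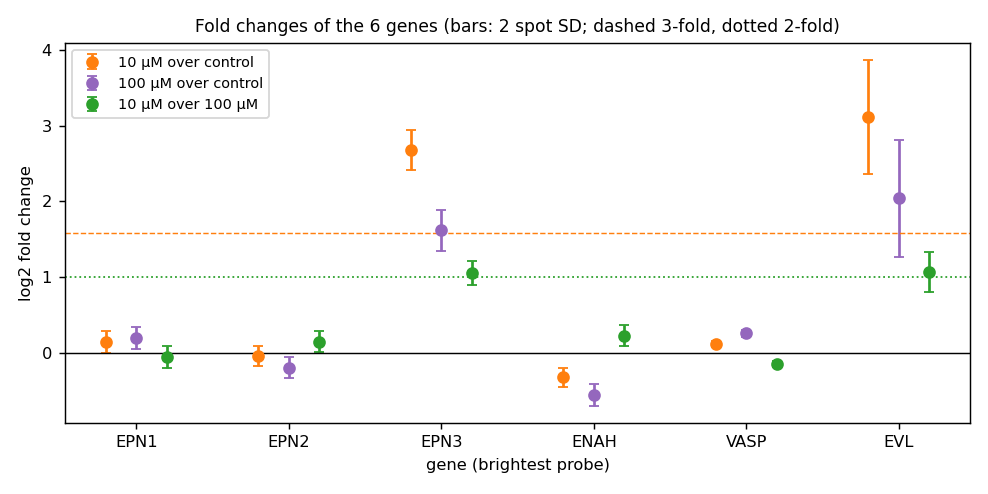
Log2 fold change of the brightest probe of each gene for 10 µM over control, 100 µM over control and 10 µM over 100 µM. Bars are 2 spot SD within an array and not replicate error. EPN3 and EVL stand well above 0 in all 3 comparisons, and their bars for 10 µM over 100 µM cross the 2-fold line. EPN1, EPN2, VASP and ENAH lie between -0.55 and 0.26. Points of EPN1 and VASP at 100 µM over control and 10 µM over 100 µM, and of EPN2 at 10 µM over control, change side of 0 with the scaling.

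At the thresholds of the study, 2 of the 6 genes (EPN3 and EVL) were above 3-fold at the low dose, where 1.29% of the 16659 genes with a fold were. At the high dose the same 2 were above 3-fold, against 1.87% of 16775 genes, but EPN3 at 3.07 lay just inside and fell to 2.51 to 2.73 without scaling and with median or spike-in scaling, and to 2.5 with normexp. In the ratio of the doses 2 genes were above 2-fold, against 3.66% of 16686. EPN3 (2.09) and EVL (2.11) lay just inside that limit, and the next member, ENAH, at 1.18, was well outside it. Because these contrasts chose EPN3 and EVL, nothing is read from the shares. The share of all genes that met both the 3-fold and the 2-fold criterion was 0.496%.

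**Figure D3:**
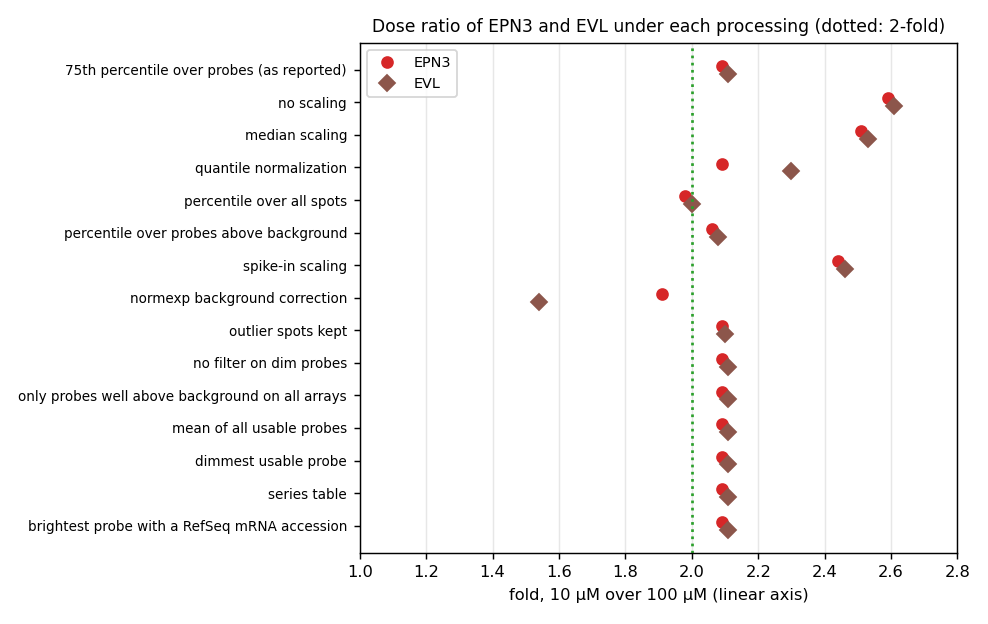
Fold of EPN3 (circles) and EVL (diamonds) at 10 µM over 100 µM, on a linear axis, under the reported processing and each alternative. The values run from 1.91 to 2.59 for EPN3 and from 1.54 to 2.61 for EVL, and neither exceeded 2-fold (dotted line) with a percentile over all spots or with normexp.

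The genes around them gave a setting for these values. In the RefSeq gene order EPN3 lies between MYCBPAP and SPATA20. MYCBPAP read 52.7, 52.9 and 47.0, or 0.962-fold at the low dose, and SPATA20 read 2358, 2736 and 2569, or 1.11-fold. Neither neighbour shared the EPN3 profile. EVL lies between EML1, above background on no array, and the sphingolipid enzyme gene DEGS2, which overlaps it and read 230, 191 and 208 (0.796-fold at the low dose). Of 12 neighbours of the 6 genes, 8 had a fold at the low dose, and 0 of those were past 1.5-fold in either direction, where 9.06% of all genes were above and 6.47% below. At the high dose LBR, a nuclear envelope protein gene next to ENAH, was at 0.419-fold (7460, 6484 and 2632).

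The 250 bases before each annotated start were read from RefSeq (GRCh38.p14) for 5 of the 6 genes. EVL has 2 listed starts, and its sequences are shown because they differ in base composition. Capitals mark the GC box, searched as GGGCGG on either strand.
EVL start at the 5′ side, chr14:99971172-99971421, plus strand: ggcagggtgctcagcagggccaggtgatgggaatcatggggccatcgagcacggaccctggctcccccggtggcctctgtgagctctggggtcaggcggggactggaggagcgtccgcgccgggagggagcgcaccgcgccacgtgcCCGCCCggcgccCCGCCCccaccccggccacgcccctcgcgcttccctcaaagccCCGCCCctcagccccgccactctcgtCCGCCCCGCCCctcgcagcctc
EVL start at the 3′ side, chr14:100065172-100065421, plus strand: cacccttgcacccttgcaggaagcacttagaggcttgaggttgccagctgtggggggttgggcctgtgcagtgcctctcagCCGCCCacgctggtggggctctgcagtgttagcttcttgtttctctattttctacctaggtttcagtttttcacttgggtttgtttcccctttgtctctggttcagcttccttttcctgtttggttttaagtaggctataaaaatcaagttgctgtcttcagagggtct

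The first EVL window was 76.8% G and C, at percentile 92.5 of all windows, with 26 CpG and 5 GC boxes, 2 of which overlap. The second was at percentile 31.9, with 2 CpG and 1 GC box. The windows of ENAH, EPN1 and EPN2 held 36, 31 and 29 CpG, and that of VASP held 15. The median of 35116 windows was 11 CpG, and 42.6% held a GC box. The p53 response element decamer, searched by name on both strands, matched 5.57% of all windows. It matched 0 of these 6, which belong to EPN1, EPN2, EVL, ENAH and VASP. That says only that these letters are absent from these windows. EPN3 had no window here, so the search does not cover it.

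The genes most like EPN3, by the distance between the pairs of log2 changes at both doses over 3 arrays and 12046 genes, were MDM2 (distance 0.14), SBK1 (0.18), TMEM40 (0.24), the glutaminase gene GLS2 (0.28) and the carboxypeptidase gene CPA1 (0.31). The brightest MDM2 probe, which gave this place, was 7.03-fold above control at the low dose and 3.18-fold at the high dose. Its other 2 probes gave 3.57 and 4.88-fold at the low dose and 2.20 and 2.77-fold at the high dose, farther from EPN3. Those most like EVL were GPR56 (0.12), the proline dehydrogenase gene PRODH (0.15), IGFBP2 (0.22), TMC7 (0.24) and the lysyl oxidase-like gene LOXL4 (0.28). GPR56 read 439, 3967 and 1645, and IGFBP2 read 26.4, 214 and 82.0. EVL stood at place 31 from EPN3, and EPN3 at place 20 from EVL (distance 0.60). Nearness here rests on 2 numbers per gene. The distances of 0.12 to 0.28 from EVL are smaller than the spot SDs of the EVL folds. Those SDs were 0.38 in log2 for 10 µM and 0.39 for 100 µM, so the choice and order of these genes are not resolved. Some of the listed genes were also dim. SBK1, TMEM40 and TMC7 read 22.5, 31.4 and 26.0 in control, where the lowest signal well above background was 19.5.

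Lists of genes that work with these families, 6 lists and 104 genes in all, were read the same way. At the low dose 89 had a fold, of which 7 (7.87%) were above 1.5-fold and 4 (4.49%) below 1/1.5, with a median log2 change of -0.01. Over all genes the shares were 9.06% and 6.47%, and the median was -0.03. At the high dose 85 had a fold, of which 12 (14.1%) were above and 8 (9.41%) below, with a median of 0.15. Over all genes the shares were 18.6% and 9.82%, and the median was 0.08. The split moved with the scaling: 6 above and 12 below without scaling, 6 and 14 with median scaling, 6 and 11 with spike-in scaling, 10 and 9 with quantile normalization and 13 and 5 with a percentile over all spots. At the low dose it was 11 above and 3 below without scaling and 10 and 3 with spike-in scaling.

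Of 35 genes of the clathrin coat and its adaptors, 4 of 28 were above 1.5-fold at the low dose and 0 below. These are 14.3% and 0%, where 9.06% and 6.47% of all genes were. AMPH, which read 20.2 in control and 33.4 with 10 µM, is among the 4 at 1.58-fold, with a spot SD of 0.52 in log2. At the high dose 4 of 27 (14.8%) were above and 1 (3.7%) below, where 18.6% and 9.82% of all genes were. CLTB, the clathrin light chain b gene, was at 1.84-fold at the low dose and 1.59-fold at the high dose, and CLTCL1, a second clathrin heavy chain gene, was at 1.78-fold and 2.69-fold. BIN1, which senses membrane curvature, was at 1.60-fold at the low dose. The epsin partner gene EPS15 was at 0.764-fold and 0.822-fold, and DAB2, a cargo adaptor gene, at 0.685-fold at the low dose. The probe for CLTC, the main clathrin heavy chain gene, was above background on no array. Among relatives with an ENTH or ANTH domain, 0 of 5 passed 1.5-fold at the low dose. HIP1R, which links coats to actin, was at 1.39-fold and CLINT1, the epsin-related adaptor gene, at 0.797-fold.

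Of 9 genes for epsin cargo, Notch ligands and ubiquitin ligases of those ligands, 5 had a fold. These were EGFR, JAG1 and the ligase genes MIB1, MIB2 and NEURL. MIB2, a ubiquitin ligase for Notch ligands, was at 1.44-fold at the low dose and 2.13-fold at the high dose, and the ligand gene JAG1 was at 0.835-fold and 0.515-fold. The 2 EGFR probes well above background on all arrays disagreed. The brighter one read 386, 170 and 504, and the other read 269, 219 and 187. The first was thus lowest at the low dose, and the second was lowest at the high dose, so the direction of EGFR depends on the probe. The array assigns them to different transcripts, NM_201283 for the brighter one and NM_005228 for the other. Another probe, for NM_201282, read 15.7, 17.2 and 34.3 and was well above background only at the high dose. Through the brighter probe EGFR is counted below 1/1.5 at the low dose (0.422-fold) and above 1.5-fold at the high dose (1.55-fold).

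Of 14 partners of the Ena/VASP proteins with a fold at the low dose, 1 was above 1.5-fold and 2 below 1/1.5. These are 7.14% and 14.3%, where 9.06% and 6.47% of all genes were. At the high dose 2 of 14 (14.3%) were above and 4 (28.6%) below, where 18.6% and 9.82% of all genes were. PALLD (palladin), which cross-links actin and binds the EVH1 domain, was the list gene past 3-fold at the low dose. It read 64.1, 221 and 173, or 3.30-fold at the low dose and 3.20-fold at the high dose, and its other probe gave 2.0-fold and 1.44-fold. Both of its probes were highest at the low dose before scaling. After scaling, the low dose was 1.03-fold of the high dose for the brighter probe (log2 0.04, spot SD 0.11) and 1.39-fold for the other.

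The LIM protein genes LPP and TES were at 0.590-fold and 0.685-fold with 10 µM and at 0.565-fold and 0.560-fold with 100 µM. VCL, the vinculin gene, was at 0.657-fold at the high dose and TLN1, the talin gene, at 1.58-fold. For RAPH1 (lamellipodin) the brightest probe read 10080, 5088 and 11900. Its other 2 probes lay within 0.07 of 0 in log2 at the low dose, at -0.07 and -0.02, so RAPH1 is counted among the lower genes through 1 probe of 3.

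Of 32 regulators of actin filaments, 2 (6.25%) were above 1.5-fold at the low dose and 0 below. At the high dose 4 of 30 (13.3%) were above and 1 (3.33%) below. Over all genes the shares were 9.06% and 6.47% at the low dose, and 18.6% and 9.82% at the high dose. DAAM2 is 1 of the 2 at the low dose, at 1.59-fold with a spot SD of 0.60 in log2. Its control was not well above background, so this fold is a lower bound. GSN (gelsolin), which severs and caps filaments, read 4319, 7917 and 7493, or 1.76-fold and 2.06-fold, while the other GSN probe had folds of 1.90 and 2.10. CAPG, a gene for a protein that caps filament ends, was at 1.95-fold at the high dose. The formin gene DIAPH3 read 420, 569 and 48.5, or 1.3-fold at the low dose and 0.137-fold at the high dose. A second DIAPH3 probe read 158, 157 and 14.9. The loss of DIAPH3 signal was thus seen at the high dose by both probes. Among the other EVH1 genes, SPRED1 was at 0.658-fold at the low dose and HOMER3 at 1.46-fold.

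**Figure D4:**
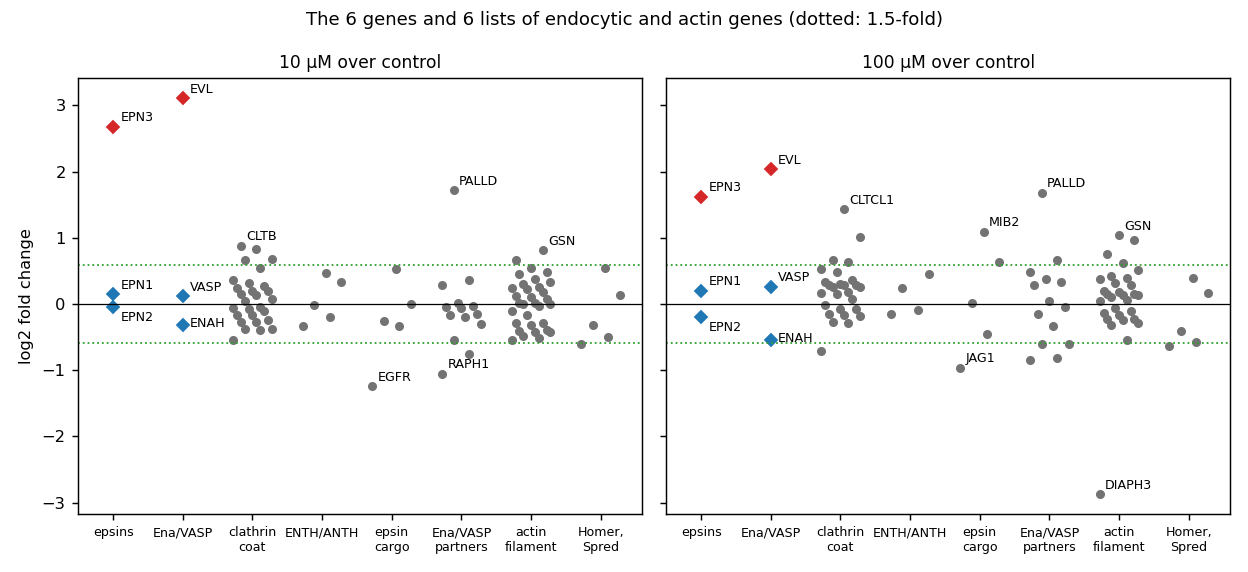
Log2 fold change of the 6 genes (diamonds, EPN3 and EVL in red) and of each gene with a fold in the 6 lists (grey points), at 10 µM over control on the left and 100 µM over control on the right. Dotted lines are 1.5-fold. EPN3 and EVL lie above every list gene at 10 µM, and PALLD at 1.72 is the nearest. At 100 µM EVL is still the highest, and PALLD at 1.68 lies beside EPN3 at 1.62. List genes near 0 at 100 µM change side with the scaling.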

How the data were processed

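Per the labels and the methods of the study, total RNA was labelled with Cy3, hybridised to Agilent whole human genome arrays and read with Agilent Feature Extraction 10.7.3.1 at default settings. The deposited processed signal is a linear intensity per spot, background-corrected by the authors' software and not scaled between arrays. Per the authors, each condition was a single sample. The deposited series table held the same values for all 44495 spots of each array (relative tolerance 1e-06).

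Control spots and outlier spots were left out, and spots of a probe were averaged (Python 3.11.15, pandas 2.3.3, numpy 2.4.6). This left 34118 probes, 9 probes having outlier spots throughout an array. Each array was divided by its 75th percentile and folds were taken on log2 values. A gene was read by its brightest probe, and a fold was given where that probe was well above background on at least 1 array of the pair, a dim value being raised to the lowest signal well above background. Spot SDs came, for each probe, from the 50 nearest in signal of 999 probes spotted 10 times. Normexp used limma 3.58.1 (R 4.3.3) with an offset of 50. The calculation was tested on simulated data. Array number limits the precision.

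Named genes were the 6 members, the 3 highest and lowest genes of each list at each dose, those past 3-fold, the 5 genes most like EPN3 and EVL, and CDKN1A and MDM2, of which the text gives a selection. Members, lists and rules were chosen with earlier results of these data known. Neighbouring genes were chosen after the member values were seen. Promoter windows came from RefSeq, GRCh38.p14, with no entry used here for EPN3.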

Additional observations from a re-analysis of the deposited data

How the results depend on the processing

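Members above 3-fold at the low dose stayed at 2 under every alternative run. Members above 2-fold between the doses went from 2 to 0 with a percentile over all spots and with normexp (offset 50). Under normexp the gap to the nearest paralog was 2.14 for EPN3 with 10 µM and 1.17 with 100 µM, and 1.61 and 0.89 for EVL. List genes above 1.5-fold at the low dose (7) became 11 without scaling, 3 with normexp and 1 at a 2-fold limit, and those below (4) became 2 with the dimmest probe and 2 at a 2-fold limit. At the high dose those above (12) became 6 without scaling, 6 with median scaling, 6 with spike-in scaling, 7 with normexp and 5 at a 2-fold limit, and those below (8) became 14 with median scaling, 5 with a percentile over all spots and 1 at a 2-fold limit.

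The scalings moved the median log2 change of all genes at the high dose from 0.08 to -0.17 without scaling, -0.21 with median scaling and -0.09 with spike-in scaling. The high-dose change of EPN1 reversed to -0.05 without scaling and -0.09 with median scaling, and that of VASP to -0.03 with median scaling. The VASP ratio of low to high dose reversed to 0.17, 0.12 and 0.08 without scaling and with median and spike-in scaling. Under the same 3, the clathrin coat median reversed to 0.21, 0.17 and 0.12 between the doses, and the actin list to 0.19, 0.15 and 0.11. At the high dose the clathrin coat median became -0.03 without scaling and -0.07 with median scaling, and the actin list -0.11, -0.15 and, with spike-in scaling, -0.03. Other reversals came from the choice of probe. The EPN2 ratio of the doses became -0.07 with the mean of probes and -0.29 with the dimmest probe. With the dimmest probe the high-dose change of EPN2 became 0.19 and the low-dose change of ENAH 0.06. The high-dose median of the Homer and Spred genes became 0.16 with the mean of probes. The low-dose median of the list of epsin cargo, Notch ligands and their ligases became 0.06 without the filter on dim probes. An alternative that read genes by the brightest probe with a RefSeq accession was chosen after seeing the data. The reported values used the brightest probe of any accession. The cause of the reversals was not tested.

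No paired analysis was possible because the doses had 1 array each. The low control signal of EVL limits its fold, and spot SDs hold no error between cultures.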

Other observations

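The brightest probes of EGFR, RAPH1 and the blood marker gene PTPRC were lowest at the low dose, where EPN3 and EVL were highest, and like them were above control at the high dose after scaling (log2 0.63, 0.49 and 0.41). PTPRC read 257, 131 and 288 in control, low-dose and high-dose cells, and its other 4 probes were above background on no array. The low dose was 0.272-fold of the high dose for EGFR, 0.345-fold for RAPH1 and 0.368-fold for PTPRC. The other EGFR probe well above background on all arrays gave 0.945-fold. The EGFR probe above it only at the high dose gave at most 0.533-fold. The other RAPH1 probes gave 1.02-fold and 1.27-fold. These 3 genes were picked after their values were seen, and the order is not particular to them. Among the marker genes CD79A, HNF4A, CD3E and SNAP25 had it too. For them the low dose was 0.515, 0.456, 0.527 and 0.522-fold of the high dose. The last 3 are dim, with spot SDs of 0.33 to 0.36 in log2. Other markers, such as ALB and PECAM1, did not have it.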
